A study of Mus musculus with 4 samples.

Results

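The WNK-SPAK pathway, which sets salt reabsorption in the distal nephron, was examined as 9 genes chosen by name: the kinase genes Wnk1, Wnk2, Wnk3 and Wnk4, the downstream kinase genes Stk39 and Oxsr1, the ubiquitin ligase genes Klhl3 and Cul3, and the cotransporter gene Slc12a3. The rule took every row of 3 deposited gene lists whose symbol was one of these names. It found 5 of the 6796 symbols in the control ChIP list, 1 of the 4953 in the Foxp1KspKO list and 5 of the 3483 in the list that the authors call unique to the control. A gene without a row is called not listed.

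The lists come from chromatin immunoprecipitation with sequencing (ChIP-seq) for the forkhead factor Foxp1, made to look for its direct targets in distal tubules. The groups were the ChIP and the input from littermate control newborns and the ChIP and the input from Foxp1KspKO mice, with 1 library in each of these 4 groups. Tubular cells were taken from whole kidneys by collagenase digestion and sieving, so the distal convoluted tubule is only a part of the cells behind each library, and a listing cannot be assigned to a cell type. The knockout takes its name from Ksp-cadherin (gene Cdh16), whose promoter drives Cre in tubule epithelium and not only in the distal convoluted tubule. Alleles, the age of the Foxp1KspKO mice beyond their description as neonatal, and the number of animals per library were not given in the labels used here. In the labels' antibody field, the control ChIP has rabbit IgG while the Foxp1KspKO ChIP has the antibody to Foxp1, whereas the descriptions name both libraries FoxP1. The libraries are called here by the genotype in their titles, and every direction rests on those titles. Neither Foxp1 nor Cdh16 had a row in either ChIP list, so the targeted gene gives no check of the genotypes. ChIP p-values do not measure expression, and the cell type could not be checked against its markers.

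WNK kinases sense chloride and potassium conditions in the cell and phosphorylate the related kinases SPAK, encoded by Stk39, and OSR1, encoded by Oxsr1. These in turn phosphorylate and activate the thiazide-sensitive sodium chloride cotransporter NCC, encoded by Slc12a3, at the apical membrane of the distal convoluted tubule. KLHL3 is the adaptor by which the cullin CUL3 marks WNK kinases for degradation, and in humans variants in WNK1, WNK4, KLHL3 and CUL3 cause familial hyperkalemic hypertension, while loss of SLC12A3 causes Gitelman syndrome.

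The control list held 5 of the 9 genes (55.6%), Wnk4, Cul3, Stk39, Wnk1 and Oxsr1, where 29.0% of the 21900 protein-coding genes were listed. The Foxp1KspKO list held 1 of the 9 (11.1%), Wnk4, where 20.9% of protein-coding genes were listed. All 5 control genes were also in the authors' unique list, which held 15.1% of protein-coding genes. That list is a part of the control list and held 3302 of the 6344 protein-coding genes there. Wnk2, Wnk3, Klhl3 and Slc12a3 were not listed for either ChIP. Below a p-value of 0.001 the control list still held 4 of the 9 genes, against 14.3% of protein-coding genes, and below 1e-05 it held 2, Wnk4 and Cul3, against 7.38%. At the limit of 0.01 the control list held the same number, 4, against 21.1% of protein-coding genes. The unique list held 4 members below 0.01 (10.0% of protein-coding genes), 4 below 0.001 (5.96%) and 2 below 1e-05 (2.62%). In the Foxp1KspKO list Wnk4 lay below 0.01, as did 12.6% of protein-coding genes, and 0 members lay below 0.001 or 1e-05, where 6.62% and 2.06% of protein-coding genes did. When the deposited p-values were adjusted over all protein-coding genes by Benjamini-Hochberg, 4 members passed 0.05 in the control list (21.3% of protein-coding genes) and 1 in the Foxp1KspKO list (10.3%). In the control list but absent from the Foxp1KspKO list were 4 members (15.7% of protein-coding genes), and 1 was in both lists (13.2%). Of the 6344 protein-coding genes in the control list, 3444 were absent from the Foxp1KspKO list. The member counts are thus also to be set beside these shares of the control list. All of these are counts of 9 genes chosen with results of these data known, and with 1 library per genotype no test of the difference exists.

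**Figure D1:**
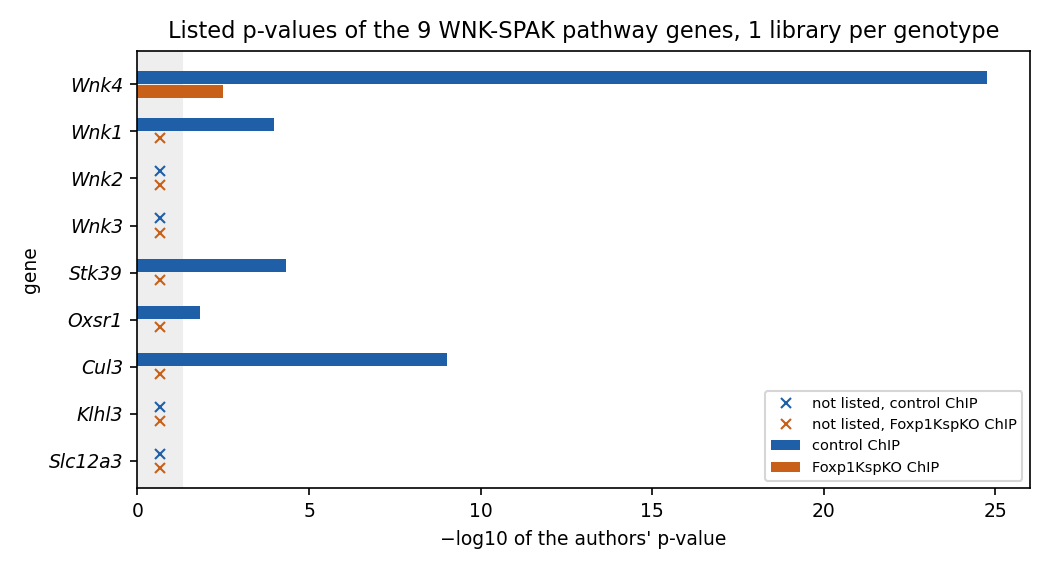
Bars give −log10 of the authors' p-value for each gene in the control ChIP (blue) and for the knockout ChIP (orange), with 1 library each and no error. Crosses in the grey zone, which marks p-values above 0.05, stand for genes not listed. Wnk4 reached 24.76 for the control and 2.50 for the knockout, and the next longest bar, Cul3, reached 9.01.

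The lists give no bound position, so the promoters are shown to let the members be compared by sequence, not as binding sites. Each window runs from 250 bases before to 50 bases after an annotated start, taken from RefSeq (GRCm38.p6) and written 5′ to 3′ on the gene's strand, with CpG dinucleotides in capitals. Wnk4 (chr11:101260317-101260616, plus strand) and Cul3 (chr1:80340641-80340940, minus strand) had the lowest control p-values. Wnk3 (chrX:151197828-151198127, plus strand) and Slc12a3 (chr8:94328958-94329257, plus strand) were not listed.
Wnk4: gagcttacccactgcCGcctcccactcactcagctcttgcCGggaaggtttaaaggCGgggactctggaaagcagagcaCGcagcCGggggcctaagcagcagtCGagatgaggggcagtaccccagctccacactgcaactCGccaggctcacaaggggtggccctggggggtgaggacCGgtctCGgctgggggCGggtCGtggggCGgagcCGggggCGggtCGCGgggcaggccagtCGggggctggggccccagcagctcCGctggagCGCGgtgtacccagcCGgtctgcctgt
Cul3: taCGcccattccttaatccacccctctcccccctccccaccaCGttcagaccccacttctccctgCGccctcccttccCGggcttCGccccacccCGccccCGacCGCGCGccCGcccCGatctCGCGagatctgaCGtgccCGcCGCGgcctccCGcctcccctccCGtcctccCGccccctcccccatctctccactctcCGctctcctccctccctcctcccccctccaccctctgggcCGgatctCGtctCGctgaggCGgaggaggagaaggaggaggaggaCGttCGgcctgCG
Wnk3: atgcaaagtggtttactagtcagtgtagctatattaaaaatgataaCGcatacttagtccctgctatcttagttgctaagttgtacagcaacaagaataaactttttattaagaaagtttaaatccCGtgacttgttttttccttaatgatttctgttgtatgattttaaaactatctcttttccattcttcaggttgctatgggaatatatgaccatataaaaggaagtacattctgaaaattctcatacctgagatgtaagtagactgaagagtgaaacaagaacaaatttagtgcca
Slc12a3: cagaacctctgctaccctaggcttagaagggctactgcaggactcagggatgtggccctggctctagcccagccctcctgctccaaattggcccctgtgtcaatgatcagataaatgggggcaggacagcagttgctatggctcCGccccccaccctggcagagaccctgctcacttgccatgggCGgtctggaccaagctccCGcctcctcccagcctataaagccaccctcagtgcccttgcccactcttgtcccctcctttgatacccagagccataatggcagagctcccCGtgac

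The 5 listed genes had the windows with more CpG. Stk39 had 49 CpG dinucleotides, Wnk1 had 32, Cul3 had 29, Oxsr1 had 24 and Wnk4 had 21. Among the genes not listed, Klhl3 had 8, Wnk2 had 5, Slc12a3 had 4 and Wnk3 had 2, so the ranges did not overlap. The median over all 32851 windows in the table was 7. The content of G and C ran from 62.3% to 80.0% in the listed genes and from 31.7% to 60.3% in the others. This comparison was chosen after the values were seen, covers 9 genes and has no test. The windows of Wnk3 and Klhl3 begin at starts 29.3 kb and 9.8 kb inside the outer edge of the gene model, so other promoters of these genes are not covered. A window was present for 79.6% of the protein-coding control genes and for 79.9% of all protein-coding genes. Base composition was not compared over the whole list. Whether listed genes in general had more CpG than other genes is therefore not known here.

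**Figure D2:**
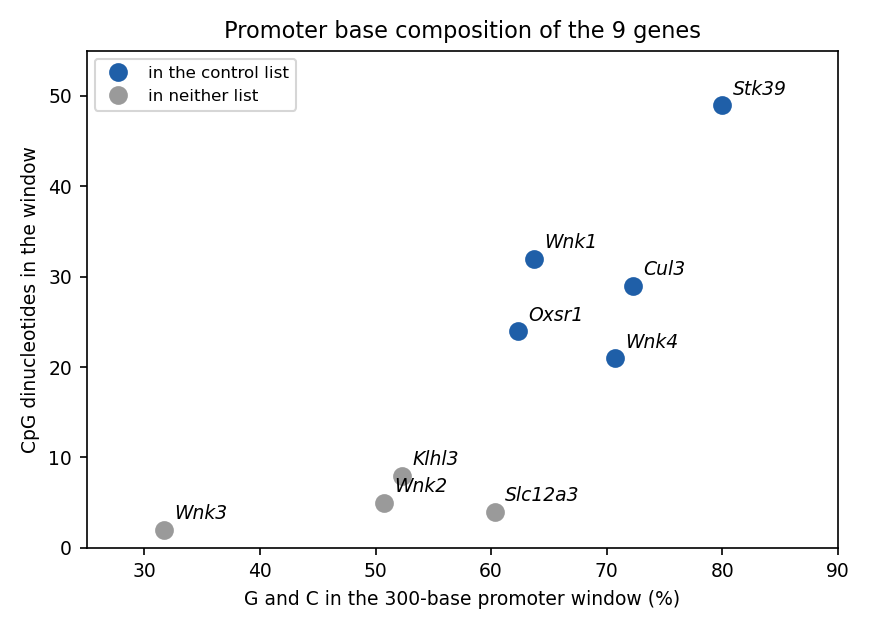
Each point is the promoter window of a member, placed by its content of G and C in percent (horizontal) and its number of CpG dinucleotides (vertical). Genes in the control list (blue) had 21 to 49 CpG dinucleotides, and genes in neither ChIP list (grey) had 2 to 8.

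Forkhead proteins bind sequences close to TGTTTAC. The 7-letter word TGTTTAC was searched on both strands of each window, as were the word TGTTTGC, the word TATTTAC and the word TATTTGC, and overlapping matches were counted. None of the 9 member windows held any of these 4 words, and 13.5% of all windows in the table did. No match says only that these letters are not in these 300 bases.

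Wnk4, the WNK kinase gene most closely tied to the distal convoluted tubule, had the lowest control p-value of the 9 genes and was the only member in the Foxp1KspKO list. The authors' deposited table gave it 1.72e-25 in the control ChIP, rank 71 of 6799 genes, and 0.00319 in the Foxp1KspKO ChIP, rank 2144 of 4953. Only 1.03% of control genes had a lower p-value, against 43.3% of Foxp1KspKO genes. With Benjamini-Hochberg adjustment over all protein-coding genes, in which unlisted genes were entered at 1, the values became 5.54e-23 and 0.0353. The gene lies on chromosome 11 from 101260537 to 101277409 (GRCm38) and, at 16873 bp, is the shortest of the 9.

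Control genes ranked near Wnk4 mostly had lower Foxp1KspKO p-values than Wnk4. Of the 100 control genes ranked closest to Wnk4, 50 on each side, 96 were also in the Foxp1KspKO list, and 88 of these had a lower Foxp1KspKO p-value than Wnk4. The control p-values of the 100 genes ran from 1.11e-47 to 7.97e-21 in the authors' deposited table. They were thus near Wnk4 in rank, but not all were of similar strength. The median Foxp1KspKO p-value of the 96 was 1.72e-05. P-values were lower across the whole control list (median 0.00116, against 0.00533), and the part of this in the values at Wnk4 was not tested. Wnk4 was 1 of 116 genes that the authors' unique list held although they were also in the Foxp1KspKO list, so here unique does not mean absent from the knockout. It was not alone in this at its rank, since the unique list held 28 of the 100 genes around it. The genes most like Wnk4, by distance in the −log10 p-values of the 2 libraries over all 3086 shared genes, were Ubqln2, Hes1 and Erbin. In the authors' deposited table Ubqln2, which encodes a ubiquitin shuttle protein, had 5.75e-25 and 0.00145 (distance 0.63). Hes1, a Notch target, had 8.51e-25 and 0.00172 in the authors' deposited table (distance 0.74), and Erbin, a scaffold protein gene, had 6.91e-26 and 3.24e-04 (distance 1.07).

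**Figure D3:**
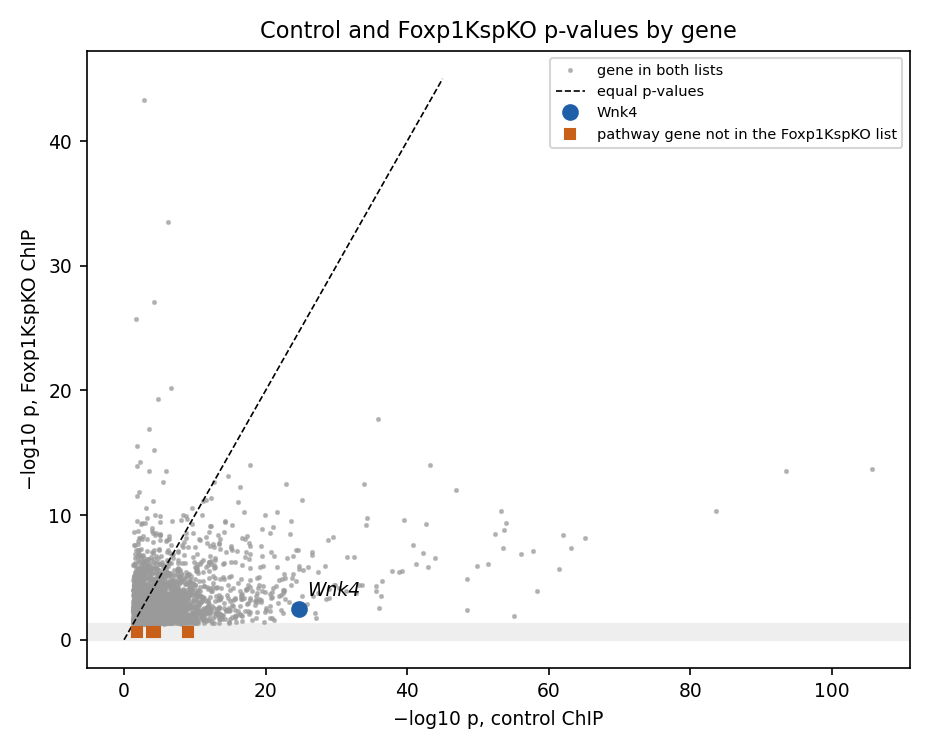
Each grey point is 1 of the 3086 genes in both lists, with −log10 p of the control ChIP on the horizontal axis and of the Foxp1KspKO ChIP on the vertical axis. Wnk4 (blue) lies at 24.76 and 2.50, under the dashed line of equal p-values, a difference of 22.27. The control value alone was above 22.27 for 94 shared genes, and 57 shared genes had a larger difference. Foxp1KspKO p-values in the list are all below 0.05, so some of the 94 could not have one. The line is only a guide, since p-values are ordered within each list. Orange squares in the grey zone mark Cul3, Stk39, Wnk1 and Oxsr1, which the Foxp1KspKO list did not hold.

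The genes on either side of Wnk4 were not in the control list. Vps25, an endosomal sorting gene 0.985 kb before it, was not listed for either ChIP. Coa3, a cytochrome oxidase assembly gene 0.560 kb beyond its other end, was not in the control list and had 0.00370 in the authors' deposited table for the Foxp1KspKO ChIP. Its Foxp1KspKO value is close to that of Wnk4 but not the same. Farther out, Ramp2, a receptor modifying protein gene 12.3 kb away, had 0.0103 in the authors' deposited table for the control ChIP and was not in the Foxp1KspKO list. Ezh1, a Polycomb methyltransferase gene 34.1 kb away, had 5.58e-11 and 1.54e-06 in the authors' deposited table. Cntd1, Becn1, Psme3 and Aoc2, also within 50 kb, were not listed.

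**Figure D4:**
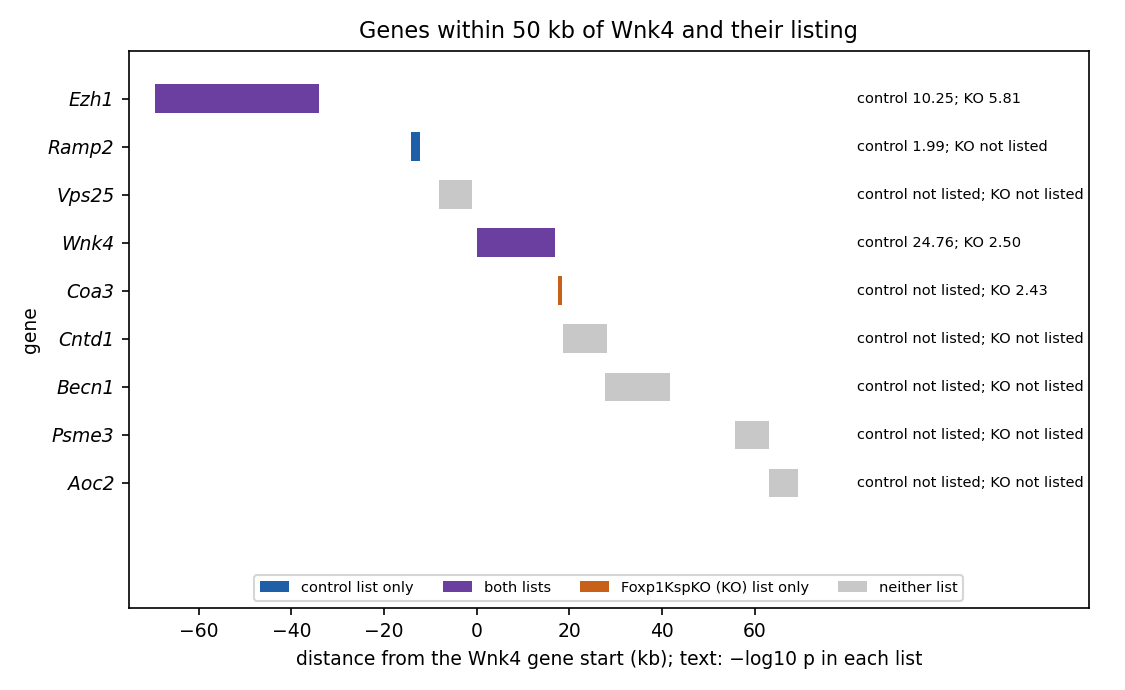
Genes within 50 kb of Wnk4 are drawn to scale by their distance in kb from its start, colored by the lists that held them, with −log10 p printed at the right. Wnk4 had 24.76 in the control ChIP, while its direct neighbors Vps25 and Coa3 were not in the control list.

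Wnk1, the broadly expressed WNK kinase gene, whose kidney-specific short form lacks most of the kinase domain, was listed for the control ChIP alone. The authors' deposited table gave it 1.07e-04, rank 2372 of 6799 genes (adjusted 0.00104 over all protein-coding genes by Benjamini-Hochberg). Exactly this p-value was also given to 3 other genes on other chromosomes, the RNA-binding protein gene Hnrnpa0 (chromosome 13), the olfactory receptor gene Olfr1312 (chromosome 2) and Sptssb (chromosome 3), named after their values were seen. Such ties were common, since 67.2% of control genes shared their p-value with another gene. Wnk1 lies on chromosome 6 from 119923969 to 120038695, and neither Rad52, 1.14 kb away, nor Ninj2 on its other side was listed. The other 2 kinases of the family, Wnk2 (chromosome 13, 49036302 to 49148574) and Wnk3 (chromosome X, 151168777 to 151320194), were not listed. Of the nearest genes of Wnk2, the pseudogene Gm18312 and the noncoding gene Gm40942, neither was listed. Next to Wnk3 the pseudogene Rps12-ps7 was not listed, and Fam120c, 22.3 kb beyond the other end, had 8.46e-10 in the authors' deposited table for the control ChIP. WNK genes share the sequence of their kinase domain, and whether reads were divided among them was not measured here.

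Both kinases downstream of the WNKs were listed for the control ChIP and neither for the Foxp1KspKO ChIP. Stk39 (chromosome 2, 68210445 to 68472108), the longest of the 9 genes at 261664 bp, had 4.67e-05 in the authors' deposited table, rank 2110 of 6799 (adjusted 5.11e-04 by Benjamini-Hochberg). Oxsr1 (chromosome 9, 119238432 to 119322684) had 0.0156 in the authors' deposited table, rank 5337, which 78.5% of control genes surpassed with a lower p-value. As with Wnk1, 3 other control genes had exactly the same p-value. Oxsr1 was the only listed member that missed 0.05 when adjusted over all protein-coding genes (Benjamini-Hochberg, 0.0682). The nearest genes of Stk39, B3galt1 and the noncoding Gm13596, were not listed, nor were those of Oxsr1, Slc22a13b and Myd88.

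The ubiquitin ligase genes differed in listing. Cul3 (chromosome 1, 80264923 to 80340690), the cullin scaffold of the ligase, had 9.85e-10 in the authors' deposited table for the control ChIP, rank 621 of 6799 (adjusted 3.62e-08 by Benjamini-Hochberg), and was not in the Foxp1KspKO list. Its nearest genes, the noncoding Gm34098 and Gm39667, were not listed. Klhl3 (chromosome 13, 58000226 to 58123477), the adaptor that recruits WNK kinases to CUL3, was not listed. Hnrnpa0, 2.40 kb from Klhl3, was listed for the control ChIP with the p-value it shares with Wnk1. On the other side of Klhl3, Spock1 was not listed.

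Slc12a3 (chromosome 8, 94329109 to 94366222), the cotransporter gene that the kinases act upon, was not listed for either ChIP. Its nearest genes, Nup93 at 1.01 kb and the noncoding Gm15889, were not listed either. A gene that is not listed had no deposited p-value, which does not show that the factor was absent from it. Around all 9 members, 20 protein-coding genes lay within 50 kb, of which the control list held 4 and the Foxp1KspKO list held 4. Over all protein-coding genes the lists held 29.0% and 20.9%. Of these neighbors 0 shared the exact p-value of its member, which only the 5 listed members could show. Gene lengths of listed and other members overlapped, with 16873 to 261664 bp among the 5 listed genes and 37114 to 151418 bp among the 4 others. The medians were 84253 and 117762 bp. Over all protein-coding genes the median was 23814 bp for genes in the control list and 15237 bp for the rest. By these medians the members were longer than other genes, so the shares of all protein-coding genes given beside their counts are not for genes of like length. The part of length in those counts was not tested.

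How often genes of nearby control rank were also in the Foxp1KspKO list was read from the 100 genes ranked around each listed member. It was 71.0% around Cul3, 44.0% around Stk39, 39.0% around Wnk1 and 26.0% around Oxsr1, where none of these members was in the Foxp1KspKO list. Most control genes of the rank of Cul3 were thus in the Foxp1KspKO list, and most of those around Stk39, Wnk1 and Oxsr1 were not. Membership in the unique list ran the other way, with 28.0% of the genes around Cul3, 48.0% around Stk39, 56.0% around Wnk1 and 66.0% around Oxsr1, and with 28.0% around Wnk4.

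**Figure D5:**
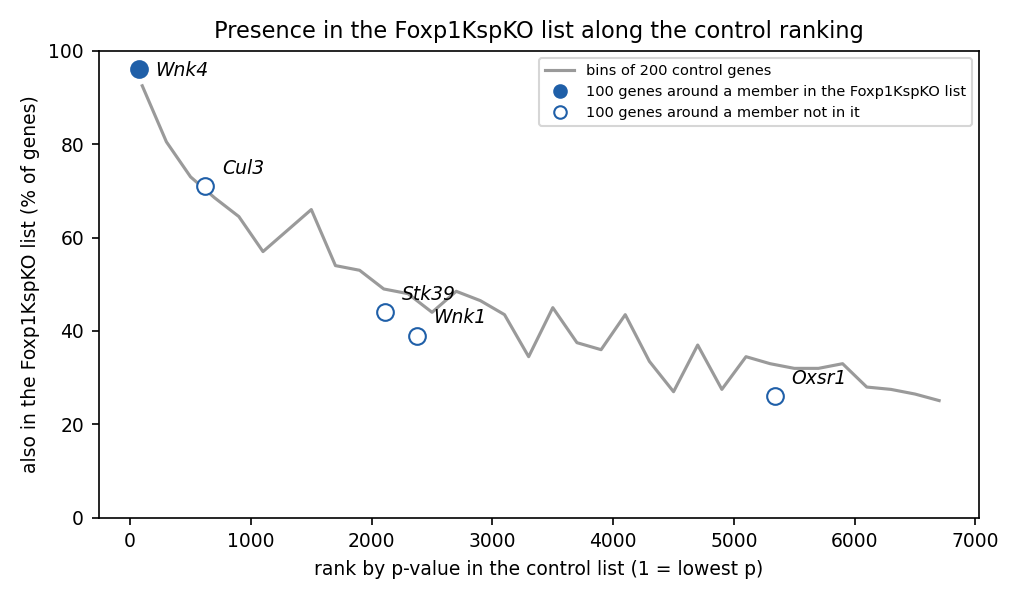
The grey line gives the percentage of control genes, in successive bins of 200 along the control ranking, that the Foxp1KspKO list also held. Circles give it for the 100 genes around each listed member, filled where the member itself was in the Foxp1KspKO list. The circles fall from 96.0% at Wnk4 to 26.0% at Oxsr1.

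Of 30 further genes of distal salt transport, the control list held 12 (40.0%) and the Foxp1KspKO list held 8 (26.7%), with 6 in both and 6 (20.0%) in the unique list, beside 29.0%, 20.9% and 15.1% of protein-coding genes. Among 12 regulators of the kinases and of NCC, 6 were in the control list and 3 of these also in the Foxp1KspKO list. Nedd4l, whose ubiquitin ligase acts on NCC and the epithelial sodium channel, had 5.44e-07 in the authors' deposited table for the control ChIP and was not in the Foxp1KspKO list. The same held for Klhl2, the closest relative of Klhl3 and an adaptor for WNK kinases as well, with 0.00770 in the authors' deposited table, and for Ppp1ca, a catalytic subunit of protein phosphatase 1, with 8.49e-05. Cops5, the subunit of the COP9 signalosome that removes NEDD8 from cullins, was in both lists, with 1.04e-11 for the control ChIP and 9.65e-11 for the Foxp1KspKO ChIP in the authors' deposited table. The calcineurin genes Ppp3ca (9.37e-09 and 0.00348) and Ppp3cb (0.0376 and 0.0407) were in both lists of the authors' deposited table. Cab39 and Cab39l, which encode the MO25 scaffolds of SPAK, Sgk1, Rbx1, Ppp1r1a and Ppp4c were not listed.

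Of 6 other cotransporters of the SLC12 family, the control list held 3 and the Foxp1KspKO list held 3, with 2 in both. Of protein-coding genes the lists held 29.0% and 20.9%, with 13.2% in both. Slc12a1, the cotransporter of the thick ascending limb, had 0.0475 in the authors' deposited table for the control ChIP and was not in the Foxp1KspKO list. Slc12a2, the widely expressed sodium potassium chloride cotransporter, was in both lists. The authors' deposited table gave it 0.00193 for the control ChIP and 1.88e-04 for the Foxp1KspKO ChIP. The potassium chloride cotransporter gene Slc12a4 was in the Foxp1KspKO list only, with 0.00108 in the authors' deposited table, and Slc12a5 and Slc12a7 were not listed.

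Among the distal channel genes, Kcnj16, a subunit of the basolateral potassium channel of the distal convoluted tubule, had 2.38e-05 in the authors' deposited table for the control ChIP, and its partner Kcnj10 was not listed. Kcnj1, Bsnd and Kcnma1 were not listed. Of 6 genes of steroid control and the epithelial sodium channel, Nr3c1, the glucocorticoid receptor, had 1.73e-05 in the control ChIP alone of the authors' deposited table. The channel subunit gene Scnn1g had 0.0119 and 0.00108 there, and Nr3c2, the mineralocorticoid receptor, Hsd11b2, Scnn1a and Scnn1b were not listed.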

How the data were processed

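Foxp1 ChIP and input libraries of newborn kidney tubular cells were sequenced, 1 library per group. The submitters' processing notes list Bowtie2, Trimmomatic, FastQC, edgeR and deepTools, with builds GRCm38 and mm10, and give no role or version. The authors deposited 3 gene lists with a p-value per gene, all below 0.05. The test behind it, its reference, the region tested per gene and read counts are not stated in the sources used here, so depth is unknown, no interval on the signal can be given, and p-values are only ordered within a list. The control and Foxp1KspKO lists were assigned by sheet names that match the sample descriptions.

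Members were matched by gene symbol, and ranks used NCBI gene numbers with the lowest p-value kept. Gene coordinates, 1-based, and promoter windows come from RefSeq (GRCm38.p6), where all 9 members had an entry. In 1668 of 1668 overlaps of windows on opposite strands the sequences were reverse complements. Backgrounds are shares of the 21900 protein-coding genes. Benjamini-Hochberg adjustment treats deposited p-values as unadjusted. It and the motif search were checked on simulated data. No test was run between groups, and the planned overlap of peaks was replaced by gene listing. Python 3.11.15, pandas 2.3.3, numpy 2.4.6 and matplotlib 3.10.9 were used.

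The members and the lists of other pathway genes were chosen with earlier results of these data known. Named genes are all members, the other pathway genes, the nearest gene on each side of each member, any gene within 50 kb with its exact p-value, and the 3 genes closest to a member present in both lists. Some genes that this rule names are counted but not reported here. Alternatives were stricter p-value limits, the adjustment, matching by NCBI gene number, leaving out genes tied with a neighbor, and, chosen after seeing the data, other rank windows.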

Additional observations from a re-analysis of the deposited data

How the results depend on the processing

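Of 15 alternatives for the counts of members, 11 stayed within 1.5 times the reported count. The planned removal of genes that share their p-value with a neighbor could change no count, since 0 members did. Below 1e-05 the control list and the unique list each held 2 members in place of 5, and below 0.001 as below 1e-05 the Foxp1KspKO list held 0 in place of 1. The stricter limits remove genes by construction. For the other pathway genes 10 of 15 alternatives stayed within that range. The control count of 12 became 6 below 0.001 and 3 below 1e-05, the Foxp1KspKO count of 8 became 2 and 1, and the unique count of 6 became 1 below 1e-05. Counting control genes absent from the Foxp1KspKO list in place of the authors' unique list left 4 of the 9 members, without Wnk4, beside 15.7% of protein-coding genes. Rank windows of 25 or 100 genes on each side gave 94.0% and 95.3% around Wnk4 and 72.0% and 71.0% around Cul3. They gave 44.0% and 49.5% around Stk39, 46.0% and 41.5% around Wnk1, and 22.0% and 31.5% around Oxsr1. The alternatives changed counts or percentages, which have no direction, so a reversal was not possible among them. No paired analysis was possible because each group held 1 library and no test was run, and for the same reason no replicate could be left out. Depth is unknown, so no detection limit can be given for a gene that is not listed.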
